A study of Arabidopsis thaliana with 9 samples.

Results

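A set of 108 Arabidopsis thaliana genes had a low RNA level in prmt5 plants, mutated in the arginine methyltransferase gene PRMT5, or in prmt4a;4b plants, mutated in PRMT4A and PRMT4B. The members were selected on the read counts themselves: a gene entered when its mean over the wild-type libraries was at least 1 CPM (1 read of a gene per 1000000 gene reads of the library) and its mean in prmt5 or in prmt4a;4b was at most 25% of that mean. Of the 33602 genes counted, 18542 reached the wild-type level, and 108 of these met the limit. They were 62 genes in prmt5, with 56 in prmt4a;4b, of which 10 were chosen in both, 52 in prmt5 alone and 46 in prmt4a;4b alone. The mutated PRMT4A and PRMT4B and AT4G28520 were left out by the rule. Because these counts chose the genes, their levels in the mutant that chose them are a description and carry no test.

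The 9 libraries came from whole plants in the Columbia background, 3 each of wild type, of the prmt5-5 mutant and of the double mutant prmt4a;4b, which combines the T-DNA alleles SALK_033423 of PRMT4A and SALK_097442 of PRMT4B by crossing. All plants grew in continuous light at 22 °C, the labels give harvest at 15 days while the study's methods give a younger age, and RNA was read without strand information after selection for poly(A). Libraries held 25029646 to 39904677 gene reads. The sources used here do not say whether replicates were separate sowings, and a p-value then covers only how far these libraries differ, while both mutants were compared with the same 3 wild-type libraries. PRMT4A RNA was at 11.8 CPM in the WT libraries and 1.38 in prmt4a;4b, and PRMT4B RNA at 13.6 and 0.720. PRMT5 RNA was at 24.6, 25.5 and 24.9 CPM in the WT libraries and 30.5, 26.6 and 23.3 in prmt5, and since the sources used here do not describe the prmt5-5 lesion, this level does not check that label.

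Protein arginine methyltransferases add methyl groups to arginine residues of histones, spliceosomal proteins and RNA-binding proteins. PRMT5 is the type II enzyme, which makes symmetric dimethylarginine, and PRMT4A and PRMT4B are type I enzymes, which make the asymmetric form and correspond to mammalian CARM1. In plants both activities are known for roles in flowering time, light responses and pre-mRNA splicing.

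Levels are CPM, given by replicate or as mean ± SD of 3 libraries. This scaling sets the median gene at a log2 change of -0.18 in prmt5 and -0.27 in prmt4a;4b, so a share of the wild-type level reads slightly low beside a scaling on the typical gene. With TMM-scaled CPM, 54 genes met the rule, 31 in prmt5, 26 in prmt4a;4b and 3 in both, and all 54 were among the 108. The set also leaned on single libraries. It held 84 genes without WT replicate 2 and 166 without WT replicate 3, and the prmt4a;4b part held 33 and 92. Changes in the mutant that did not choose a gene are log2 changes ± standard error from edgeR's quasi-likelihood test with TMM scaling, and a gene was called at a Benjamini-Hochberg adjusted p under 0.10 over all genes tested with a log2 change beyond 0.58.

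In prmt5 the 62 members stood at 4.10% to 24.97% of wild type with a median of 21.0%, and 4 of them were at or below 10%. In prmt4a;4b the 56 members stood at 0.772% to 24.7% with a median of 20.8%, and 5 were at or below 10%. Most members were therefore near the limit rather than close to zero. The nearest inside were AT4G24310 at 24.94% and the heat-shock protein gene HSP70T-2 at 24.97% in prmt5, and SZF1 at 24.64% and AT1G66090 at 24.73% in prmt4a;4b. Just outside were NF-YC12 at 25.01% and SLAH1 at 25.04% in prmt5, and CYP716A1 at 25.17% and AT4G37445 at 25.19% in prmt4a;4b. Every prmt5 library was below every wild-type library for 61 of the 62 prmt5 members, against 36.9% of all genes at the wild-type minimum, and the exception was AT5G59680, a leucine-rich repeat kinase gene. The same held in prmt4a;4b for 49 of 56, against 40.5% of all genes. Both counts follow from the rule, so nothing is read from them.

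**Figure D1:**
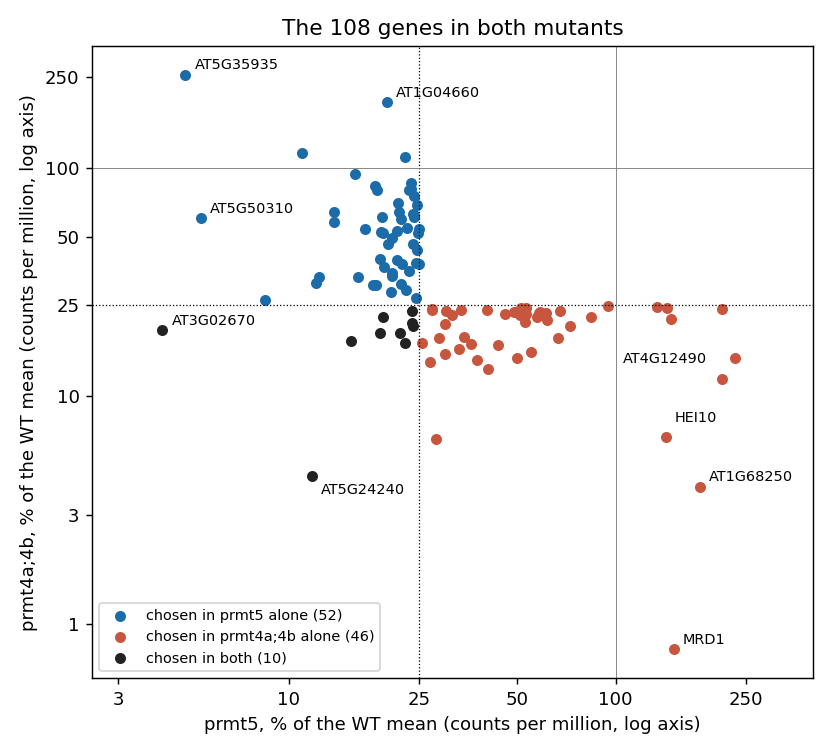
Each point is 1 of the 108 genes, with its level in prmt5 (horizontal) and in prmt4a;4b (vertical) as a percent of the wild-type mean, both on log axes. Dotted lines mark the limit of 25% and grey lines the wild-type level. The 10 genes chosen in both mutants sit at lower left, while AT5G35935 at upper left and MRD1, HEI10, AT1G68250 and AT4G12490 at lower right are low in 1 mutant and above wild type in the other.

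Members were low to moderately expressed. Their median wild-type level was 2.95 CPM against 12.7 CPM for the 18542 genes, and 60.2% of members against 26.2% of all genes were under 5 CPM. Their median exonic length was 1040.5 bases against 1578, and 25.9% had a single exon against 13.3%. Low counts vary more between libraries, and how far the level of these genes contributed to their selection was not tested. In the reference annotation 103 members were protein-coding, 4 were pseudogenes and 1 was a non-coding RNA. Only 15 members shared any 50-base stretch of exon with another gene, and 3 shared over 10% of such stretches. These were the non-coding RNA AT4G04223 (71.5%, with AT3G56210), AT1G60830 (39.8%, with AT1G60900) and AT1G25988 (18.1%, with AT1G25682), so reads of these 3 could have been divided between copies.

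A gene for a phosphatidylinositol 4-kinase gamma-like protein, AT5G24240 (TAIR10 chromosome 5, 8230942 to 8234150, minus strand), was among the lowest in both mutants. Wild-type libraries held 8.36, 7.51 and 5.67 CPM. The prmt5 libraries held 0.470, 1.33 and 0.734 CPM, and the prmt4a;4b libraries 0.249, 0.511 and 0.202 CPM. Wild type overlapped neither mutant, while the libraries of prmt5 and prmt4a;4b overlapped each other. The mean was 11.8% of wild type in prmt5, with 4.47% in prmt4a;4b. The adjoining locus AT5G24250 shares 455 bases with it and was itself below the wild-type minimum of the rule. It had 26, 20 and 14 reads in the wild type, 0, 2 and 0 in prmt5, with 2, 0 and 0 in prmt4a;4b, and was called lower in both mutants (edgeR adjusted p = 0.00185 and 0.00261). Where 2 loci share bases, reads in the shared stretch cannot be assigned to either.

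The other genes chosen in both mutants encode mostly secreted or poorly described proteins. AT5G05960, of the lipid-transfer protein superfamily, was the most abundant of the 10 at 37.2, 47.4 and 33.5 CPM in the wild type. It fell within 5.64 to 9.70 CPM in all 6 mutant libraries, 19.0% of wild type in prmt5, with 18.8% in prmt4a;4b. BGLU19, a beta-glucosidase gene, was at 30.7 ± 11.1 CPM in the wild type, 4.75 ± 3.27 in prmt5, with 5.33 ± 1.65 in prmt4a;4b, with a wild-type range of 21.1 to 42.8 CPM, and it shares 527 bases with AT3G21360, which was at 68.8% and 65.9% of wild type. Its neighbour AT3G21380, for a mannose-binding lectin, was at 11.04 ± 3.35, 2.41 ± 1.15 and 2.09 ± 0.745 CPM.

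The uncharacterised AT3G47295 was at 8.37 ± 3.70 CPM in the wild type, 1.99 ± 0.725 in prmt5, with 1.98 ± 0.934 in prmt4a;4b. A pair of glycine-rich protein genes belonged here. AT5G35660 was at 7.43 ± 3.27, 1.78 ± 1.26 and 1.51 ± 0.228 CPM, and AT3G02670 had 23, 38 and 27 reads in the wild type, 4, 0 and 0 in prmt5, with 9, 6 and 2 in prmt4a;4b. The remaining 3 were near 1 to 3 CPM in the wild type. The protein kinase gene AT5G57670 was at 1.35 ± 0.371, 0.261 ± 0.0914 CPM and 0.168 to 0.391 CPM, the lipid-transfer gene AT5G59330 at 1.31 ± 0.544, 0.311 ± 0.148 and 0.273 ± 0.245 CPM, and AT1G54870, a Rossmann-fold protein gene taken up again with the seed genes, at 2.69 ± 1.28, 0.611 ± 0.424 and 0.459 ± 0.275 CPM. For these 10 genes no mutant library reached a wild-type library of the same gene. Without WT replicate 2 only BGLU19, AT3G21380, AT5G05960 and AT5G24240 stayed in both.

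As a percent of wild type, the lowest member in either mutant was MRD1 in prmt4a;4b. MRD1 (AT1G53480, chromosome 1, 19963047 to 19964712, minus strand), named for its response in a methionine overaccumulation mutant, had 14.3, 15.5 and 15.2 CPM in the wild type and 0.213, 0 and 0.135 CPM in prmt4a;4b. In prmt5 it had 17.7, 23.8 and 26.3 CPM. HEI10 (AT1G53490, 19963267 to 19966952, plus strand), whose RING-domain product promotes meiotic crossovers, runs through the same place on the opposite strand and shares 1446 bases with MRD1. It had 17.8, 17.9 and 18.0 CPM in the wild type, 1.99, 0.682 and 0.875 in prmt4a;4b, and 20.2, 26.3 and 29.8 in prmt5. Both genes were thus at 0.772% and 6.61% of wild type in one mutant and above every wild-type library in the other.

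Since the libraries carry no strand information, the reads of MRD1 and HEI10 cannot be told apart where they overlap, and their parallel values are not 2 separate observations. In prmt5 MRD1 was called higher (log2 change 0.76 ± 0.16, edgeR adjusted p = 0.0043), as was HEI10 (0.68 ± 0.15, adjusted p = 0.0067), with every prmt5 library above every wild-type library. HEI10 passed the size limit narrowly: its log2 change was 0.53 without prmt5 replicate 3 and 0.51 with library sizes without TMM. The gene on the far side of HEI10, AT1G53500, overlaps it by 9 bases and was at 65.1% of wild type in prmt4a;4b, where it was not called (-0.35 ± 0.15, edgeR adjusted p = 0.083). In prmt5 AT1G53500 was at 55.0% of wild type.

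**Figure D2:**
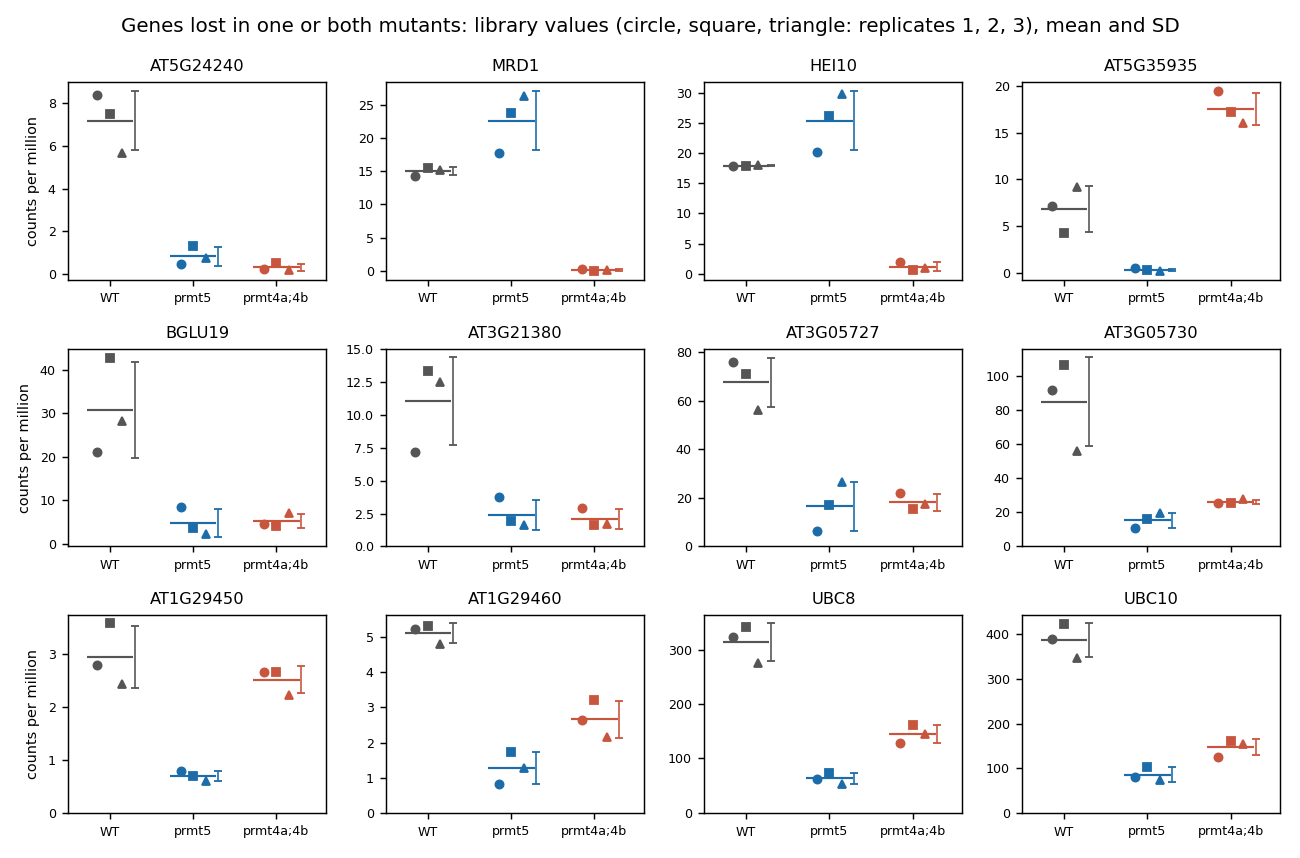
Panels give CPM in the 9 libraries for 12 genes, with circles, squares and triangles for replicates 1, 2 and 3, a bar at the mean and an error bar of 1 SD beside it. AT5G24240, BGLU19 and AT3G21380 are low in both mutants, MRD1 and HEI10 are low in prmt4a;4b and stand above wild type in prmt5, and AT5G35935 shows the reverse.

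The reverse pattern was largest for AT5G35935, a single-exon pseudogene of 6504 bases on chromosome 5 (14083388 to 14089891). Its wild-type libraries held 7.11, 4.27 and 9.15 CPM. The prmt5 libraries held 0.470, 0.276 and 0.245 CPM, 4.82% of wild type, and the prmt4a;4b libraries held 19.4, 17.2 and 16.1 CPM. The 3 groups were fully separate, and the rise in prmt4a;4b was 1.63 ± 0.24 on the log2 scale (edgeR adjusted p = 0.00052). The glycine-rich protein gene AT1G04660 went the same way at a lower level: 78, 73 and 67 reads in the wild type, 30, 10 and 12 in prmt5, with 91, 135 and 207 in prmt4a;4b (1.24 ± 0.28, adjusted p = 0.0057).

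These 2 genes were the only ones of the 52 chosen in prmt5 alone that were called higher in prmt4a;4b, where 13.8% of all tested genes were called higher. Of the 46 chosen in prmt4a;4b alone, 5 were called higher in prmt5, where 11.9% of all tested genes were. Besides MRD1 and HEI10 they were a pectin lyase-like gene, a non-coding RNA and a lipid-transfer superfamily gene. The pectin lyase-like AT3G15720 had 1.97, 2.39 and 2.16 CPM in the wild type, 2.91, 3.41 and 3.29 in prmt5, with 0.533, 0.205 and 0.673 in prmt4a;4b (log2 change in prmt5 0.73 ± 0.21, edgeR adjusted p = 0.023). The non-coding RNA AT4G04223 had 7.07, 6.25 and 7.27 CPM in the wild type, 10.3, 10.7 and 8.50 in prmt5, with 1.60, 1.36 and 2.05 in prmt4a;4b (0.69 ± 0.16, adjusted p = 0.0086). Without TMM both fell under the size limit, at 0.56 and 0.52.

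AT4G12490, of the lipid-transfer superfamily, had uneven wild-type libraries of 2.48, 2.26 and 10.5 CPM, against 6.77, 10.98 and 17.6 in prmt5, with 0.817, 1.23 and 0.202 in prmt4a;4b. Wild type and prmt5 overlapped, and its call in prmt5 (1.39 ± 0.53, edgeR adjusted p = 0.064) was lost with DESeq2 (adjusted p = 0.19) and without WT replicate 1 (1.05, adjusted p = 0.19), WT replicate 2 (1.01, adjusted p = 0.16) or prmt5 replicate 3 (0.96, adjusted p = 0.21). The uncharacterised AT1G68250 had 28, 69 and 71 reads in the wild type and 1, 2 and 4 in prmt4a;4b. In prmt5 it had 211, 15 and 139 reads, a spread that left its change there uncalled (1.04 ± 0.70, adjusted p = 0.28).

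Most members chosen in 1 mutant were also below wild type in the other, to a smaller degree. The 52 genes chosen in prmt5 alone had a median of 52.4% of wild type in prmt4a;4b, from 26.3% to 256%. There 26 were called lower, against 12.0% of all tested genes, and 24 were not called. The 46 chosen in prmt4a;4b alone had a median of 52.0% in prmt5, from 25.5% to 231%. There 20 were called lower, against 14.2% of all tested genes, and 21 were not called. The median log2 changes were -0.66 and -0.76, beside -0.00077 and -0.011 for all genes tested. Because both mutants were compared with the same wild-type libraries, a high value there lowers both shares at once, and these counts are not evidence of a common effect. Leaving out single libraries moved the counts of genes called lower to between 22 and 26 in prmt4a;4b and between 14 and 20 in prmt5.

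**Figure D3:**
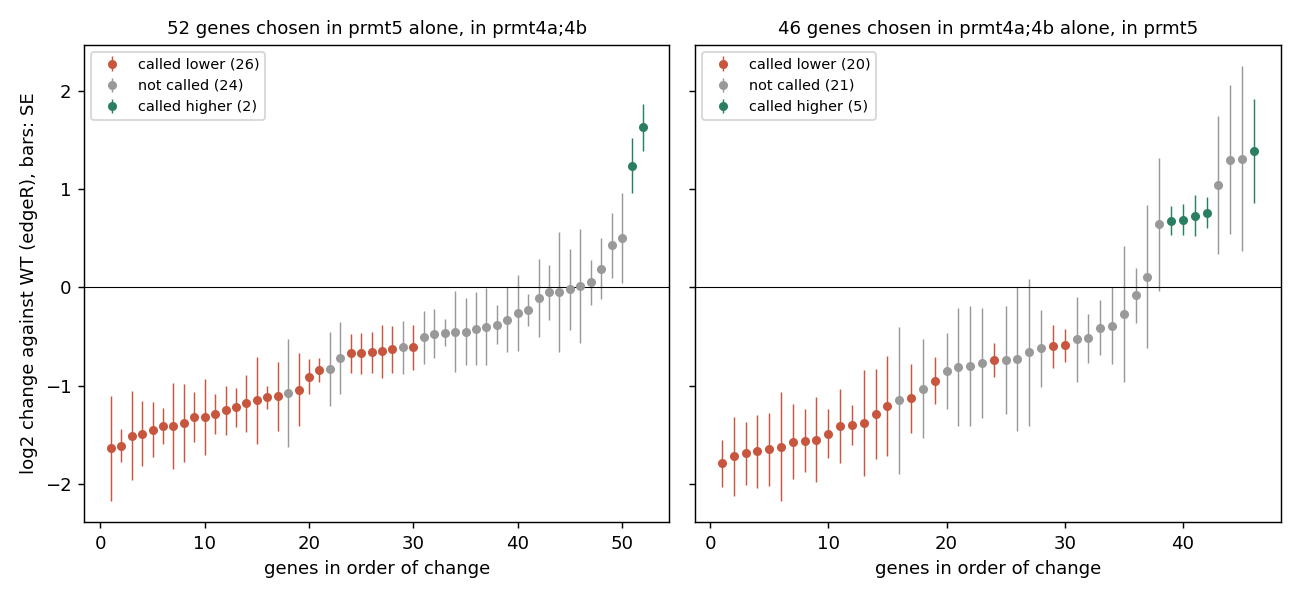
Points are log2 changes against wild type in the mutant that did not choose the gene, with bars of 1 standard error, in order of size for 52 genes (left) and 46 genes (right). Most points lie below 0, and 2 genes on the left and 5 on the right were called higher.

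Genes of auxin-related growth were chosen in prmt5 alone. SAUR genes (small auxin-up RNA) encode short proteins that promote cell expansion, and 6 of them were members, together with PRE1, which encodes a helix-loop-helix protein of growth responses. Without WT replicate 2, 3 of the SAUR genes remained in the set, AT1G29500, SAUR27 and SAUR26, while AT1G29450 (26.6%), AT1G29460 (25.4%), SAUR9 (26.3%) and PRE1 (27.9%) were above the limit of 25% in prmt5, which ended the run of AT1G29450 with AT1G29460. AT1G29450 had 2.79, 3.58 and 2.44 CPM in the wild type and 0.783, 0.702 and 0.598 in prmt5, with 2.67, 2.66 and 2.22 in prmt4a;4b. Only its prmt5 libraries stood apart. The next gene, AT1G29460, had 5.24, 5.31 and 4.79 CPM in the wild type, 0.815, 1.73 and 1.28 in prmt5, with 2.63, 3.20 and 2.15 in prmt4a;4b. Here prmt4a;4b lay between the other groups and was called lower (-0.67 ± 0.20, edgeR adjusted p = 0.020), as was AT1G29500 (-0.67 ± 0.21, adjusted p = 0.027), at 4.70 ± 0.834 CPM in the wild type, 0.910 ± 0.142 in prmt5, with 2.44 ± 0.205 in prmt4a;4b.

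SAUR27 was at 1.93 ± 0.189, 0.359 ± 0.124 and 1.54 ± 0.386 CPM in the wild type, prmt5 and prmt4a;4b, SAUR26 at 2.98 ± 0.332, 0.658 ± 0.0659 and 1.77 ± 0.265, and SAUR9 at 1.16 ± 0.168, 0.279 ± 0.160 and 0.704 ± 0.289. PRE1 was at 1.34 ± 0.408, 0.330 ± 0.258 and 0.924 ± 0.258 CPM. None of these 4, nor AT1G29450, was called in prmt4a;4b, where their log2 changes ran from -0.47 to 0.05. Across the whole family 24 of 57 tested SAUR genes were called lower and 6 higher in prmt5, a count that includes the 6 members, with a median log2 change of -0.63 beside -0.01 for all genes, of which 14.2% were called lower and 11.9% higher. In prmt4a;4b 10 of 59 were called lower and 14 higher, with a median of 0.04, against 12.0% and 13.8% of all tested genes. Of the tested SAUR genes next to these members that were not members themselves, AT3G03830, beside SAUR27, was called lower in prmt5 (-1.78 ± 0.60, edgeR adjusted p = 0.043). AT1G29440 (-0.55 ± 0.46, adjusted p = 0.38) and SAUR68 (AT1G29510, -0.34 ± 0.41, adjusted p = 0.55) were not called.

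The most abundant members were UBC10 and UBC8, which encode ubiquitin-conjugating enzymes. UBC10 had 388, 424 and 348 CPM in the wild type, 80.2, 104 and 73.1 in prmt5, with 126, 161 and 153 in prmt4a;4b. UBC8 had 324, 343 and 276 CPM, then 63.1, 73.5 and 53.1, then 129, 161 and 146. For both genes the groups were fully separate, with prmt4a;4b between the others. They shared no 50-base exon stretch with each other or another gene. Both were called lower in prmt4a;4b as well, UBC10 by -1.12 ± 0.12 (edgeR adjusted p = 0.00013) and UBC8 by -0.84 ± 0.12 (adjusted p = 0.00038), and both calls held in all alternatives tried. Other protein-turnover members were the vacuolar processing enzyme gene DELTA-VPE and the subtilase gene AT4G21650. AT4G21650 had 35.2, 42.1 and 38.4 CPM in the wild type, 8.33, 7.12 and 6.77 in prmt5, with 27.3, 20.4 and 12.8 in prmt4a;4b.

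Small secreted and defence-related proteins made up 15 members. The defensin-like AT3G05730 was the third most abundant gene chosen in prmt5, at 91.8, 106 and 55.9 CPM in the wild type, 10.5, 16.2 and 19.3 in prmt5, with 25.1, 25.4 and 27.5 in prmt4a;4b. Next to it AT3G05727, for a small protein related to a binding partner of an S-locus glycoprotein, had 76.0, 70.9 and 56.5 CPM, then 6.17, 17.0 and 26.4, then 21.9, 15.3 and 17.3. Both were called lower in prmt4a;4b (-1.41 ± 0.18, edgeR adjusted p = 0.00027, and -1.61 ± 0.17, adjusted p = 0.00011). The thionin gene AT1G66100, for an antimicrobial peptide, had 21.6, 17.2 and 12.6 CPM in the wild type and 2.73, 2.13 and 2.20 in prmt5. In prmt4a;4b it had 12.8, 12.3 and 7.81 CPM, a change that was not called (-0.38 ± 0.20, adjusted p = 0.17). Cystatin A (CYSA), a protease inhibitor gene, was at 23.3% of wild type in prmt5, with 35.2% in prmt4a;4b, and VSP2, a jasmonate-responsive storage protein gene, at 24.1% and 61.9%. In prmt4a;4b VSP2 had 85.4, 50.9 and 18.5 CPM, which overlapped the wild-type 63.2, 88.5 and 98.2, and it was not called (-0.42 ± 0.37, adjusted p = 0.40).

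Lipid transfer proteins are small secreted proteins that bind lipids in the cell wall. LTP4, LTP3 and AT5G59330 lie side by side within 6.805 kilobases of chromosome 5 and were all chosen in prmt4a;4b. LTP3 had 6.66, 12.8 and 10.2 CPM in the wild type, 1.85, 2.11 and 1.11 in prmt4a;4b and 2.13, 2.86 and 2.58 in prmt5 (-1.79 ± 0.24, edgeR adjusted p = 0.00055). LTP4 had 2.04, 7.70 and 7.71 CPM in the wild type, 1.92, 1.64 and 0.404 in prmt4a;4b and 6.30, 1.30 and 1.28 in prmt5, so wild type and prmt5 overlapped and it was not called there. A wider group was counted by the words lipid transfer in the annotated name, which also cover a superfamily of inhibitors and seed storage albumins. In this mixed group 14 of 70 tested genes were called lower and 18 higher in prmt4a;4b, and 16 of 72 lower and 16 higher in prmt5. The shares of all tested genes were 12.0% lower and 13.8% higher in prmt4a;4b, and 14.2% and 11.9% in prmt5.

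Genes with roles in seed maturation and desiccation tolerance were 8 members, 7 chosen in prmt4a;4b alone and AT1G54870 in both. This grouping by function was made after their values had been seen. TIP3;1, which encodes an aquaporin of seed storage vacuoles, had 6.66, 16.9 and 11.7 CPM in the wild type, 4.51, 2.56 and 2.61 in prmt5, with 3.59, 1.94 and 2.96 in prmt4a;4b. PER1, for a seed peroxiredoxin, had 10.5, 21.9 and 18.3 CPM, then 6.23, 5.51 and 4.24, then 4.02, 3.14 and 4.31. The groups of both genes were separate from wild type in both mutants. AT1G04560, for an AWPM-19-like membrane protein, had 64, 122 and 62 reads in the wild type, 28, 18 and 39 in prmt5, with 2, 12 and 2 in prmt4a;4b, and the late embryogenesis abundant gene AT5G44310 had 53, 117 and 58, then 35, 21 and 18, then 9, 8 and 15.

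The group was at 6.45% to 24.1% of wild type in prmt4a;4b and at 22.7% to 40.8% in prmt5, where 6 of the 7 not chosen there were called lower, against 14.2% of all tested genes. The calls in prmt5 were -1.69 ± 0.32 for TIP3;1 (edgeR adjusted p = 0.0030), -1.49 ± 0.25 for PER1 (adjusted p = 0.0015), -1.65 ± 0.37 for AT1G04560 (adjusted p = 0.0066) and -1.72 ± 0.40 for AT5G44310 (adjusted p = 0.0078), with higher values for HVA22B and SDH2-3 (adjusted p = 0.043 and 0.071). HVA22B lost its call without WT replicate 2 (-1.17) or prmt5 replicate 3 (-1.27), and SDH2-3 without WT replicate 2 (-0.96), WT replicate 3 (-1.38), prmt5 replicate 2 (-1.16) or prmt5 replicate 3 (-1.14) and with the replicate block (-1.36). The desiccation-like AT1G47980 was not called there (-1.15 ± 0.75, adjusted p = 0.26). In all 8 genes WT replicate 2 was the highest wild-type library, 1.196 to 1.64 times the next. Without it AT1G04560, AT1G54870 and AT5G44310 still met the rule in prmt4a;4b, 3 of the 8.

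Summed levels of 15 marker genes of seed and embryo tissue, none of them a member, were 130 to 239 CPM in the wild type, 64.1 to 74.9 in prmt4a;4b, and 287, 39.1 and 70.3 in prmt5 replicates 1, 2 and 3. Of these markers 3 of 7 tested were called lower in prmt4a;4b and none higher, against 12.0% and 13.8% of all tested genes. In prmt5 1 of 14 was called lower and 6 higher, against 14.2% and 11.9%. A gene was tested when either genotype reached the minimum of reads, and both fits used the same wild-type libraries. Markers tested only in prmt5 therefore entered through their prmt5 reads, which favours higher calls. The counts of the mutants cannot be compared for this reason. In whole plants, fewer cells or remains of a tissue and less RNA per cell cannot be told apart. Of 15 root markers the summed level was 196 to 227 CPM in WT, 209 to 292 in prmt5 and 146 to 184 in prmt4a;4b, and 5 green leaf markers summed to 44111 to 54485 CPM over all libraries. The part of such tissue in the levels of the seed genes was not tested.

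**Figure D4:**
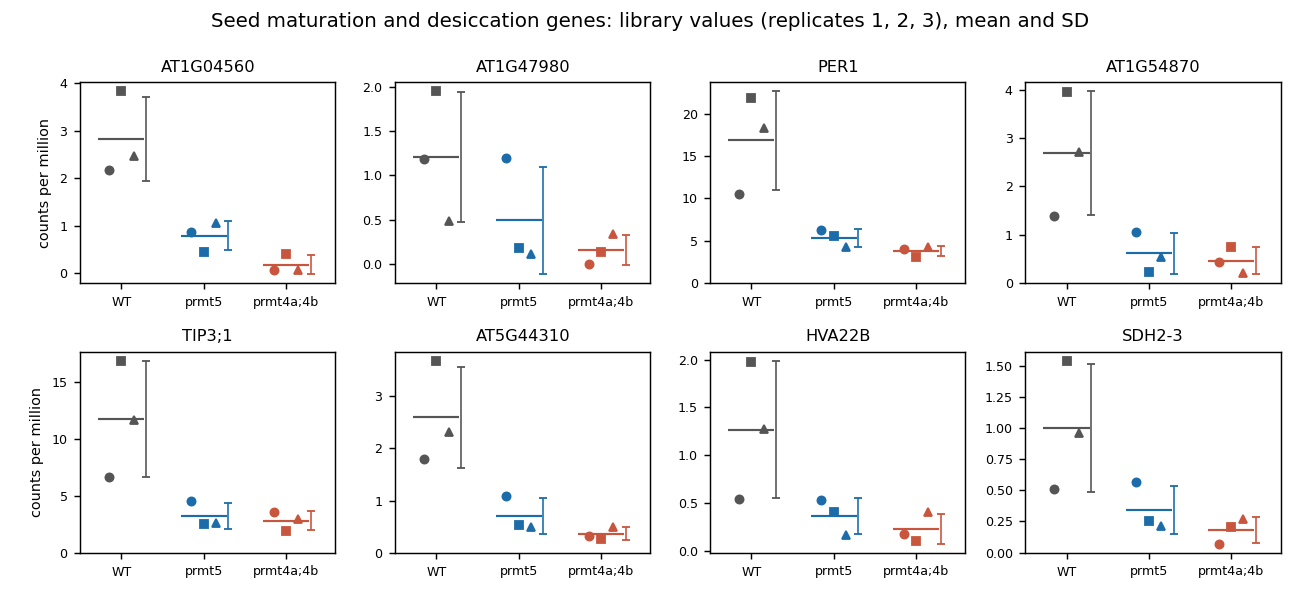
Panels give CPM for the 8 seed maturation and desiccation genes in the 9 libraries, with circles, squares and triangles for replicates 1, 2 and 3, a bar at the mean and 1 SD beside it. The square of WT replicate 2 is the highest point in every panel, and both mutants lie below the wild-type mean.

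Promoters of 4 of these seed genes are shown because all 8 hold the same short motif. The windows run from 250 bases before to 50 bases after the gene start in the RefSeq annotation of the TAIR10.1 assembly, 5′ to 3′ on the strand of the gene, with every ACGTG or its complement CACGT in capitals, the core of the abscisic acid response element. They are chr1:27521694-27521993 (plus strand) for TIP3;1, chr1:17780179-17780478 (plus) for PER1, chr1:1244697-1244996 (plus) for AT1G04560 and chr5:17849487-17849786 (minus) for AT5G44310.
TIP3;1: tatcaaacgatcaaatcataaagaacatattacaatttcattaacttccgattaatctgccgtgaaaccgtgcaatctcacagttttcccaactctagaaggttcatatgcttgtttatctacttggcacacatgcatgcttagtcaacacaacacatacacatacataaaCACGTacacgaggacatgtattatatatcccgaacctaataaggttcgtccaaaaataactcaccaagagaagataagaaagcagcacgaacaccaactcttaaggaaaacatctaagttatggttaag
PER1: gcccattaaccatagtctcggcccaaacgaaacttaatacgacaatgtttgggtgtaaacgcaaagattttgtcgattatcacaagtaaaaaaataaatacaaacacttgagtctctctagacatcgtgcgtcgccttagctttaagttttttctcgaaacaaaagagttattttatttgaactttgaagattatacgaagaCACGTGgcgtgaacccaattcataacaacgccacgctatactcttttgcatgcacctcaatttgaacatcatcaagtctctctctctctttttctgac
AT1G04560: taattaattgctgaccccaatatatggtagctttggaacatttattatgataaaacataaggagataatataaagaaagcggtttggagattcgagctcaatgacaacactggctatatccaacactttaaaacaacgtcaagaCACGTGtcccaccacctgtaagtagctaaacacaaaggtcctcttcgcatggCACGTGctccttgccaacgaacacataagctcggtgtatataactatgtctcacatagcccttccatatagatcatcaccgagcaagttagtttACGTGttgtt
AT5G44310: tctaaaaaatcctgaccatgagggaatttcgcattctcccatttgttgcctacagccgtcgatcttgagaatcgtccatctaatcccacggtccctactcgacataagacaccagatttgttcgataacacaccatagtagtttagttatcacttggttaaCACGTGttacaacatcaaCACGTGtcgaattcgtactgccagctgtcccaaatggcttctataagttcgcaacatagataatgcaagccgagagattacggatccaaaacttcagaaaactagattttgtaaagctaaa
The 4 windows hold 1, 2, 5 and 4 matches on either strand, and CACGTG counts once on each strand.

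All 8 seed genes had ACGTG on either strand in this window, and 7 of 8 had the G-box CACGTG, which contains it. Among the 18434 genes at the wild-type minimum with a window, 28.02% had ACGTG and 9.01% had CACGTG. Over all 108 members the shares were 37.0% and 15.7%, in the prmt5 members 32.3% and 11.3%, and in the prmt4a;4b members, which include the seed genes, 44.6% and 23.2%. None of the 7 SAUR and PRE1 promoters had ACGTG. The auxin response element TGTCTC was in 1 of these 7, against 13.6% of all windows and 18.5% of the members. The W-box core TTGAC, found at WRKY factor sites, was in 61.1% of members against 50.6% of all windows, and the rapid stress response element CGCGTT in 2 members, 1.85%, against 3.67%. A match is a description of the letters and not a bound site.

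A separate group of prmt4a;4b members owed its place to WT replicate 2. In 8 genes this library was over 3 times the higher of the other wild-type libraries, all 8 chosen in prmt4a;4b alone, against 0.302% of all genes at the wild-type minimum. They include rapid-response genes: SZF1, for a salt-inducible CCCH zinc finger protein, AT5G51190, for an ERF-type transcription factor, AT4G27280, for an EF-hand calcium-binding protein, CYP707A3, for an abscisic acid 8′-hydroxylase, PBP1, for a calcium-binding partner of the kinase PINOID, the F-box gene FBS1, the TIR-domain gene AT1G66090 and the uncharacterised AT4G27652. SZF1 had 19.5, 160 and 26.9 CPM in the wild type, 15.6, 21.4 and 13.9 in prmt4a;4b and 52.9, 47.3 and 176 in prmt5. AT4G27280 had 17.6, 143 and 22.7 CPM, then 14.3, 19.2 and 10.5, then 76.1, 39.2 and 271. AT5G51190 had 3.94, 44.7 and 3.56 CPM, then 1.49, 3.58 and 1.14, then 13.8, 8.62 and 88.1.

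SZF1 and AT4G27280 were 2 of the 3 most abundant members chosen in prmt4a;4b. In SZF1, AT4G27280 and AT5G51190 wild-type and prmt4a;4b libraries overlapped, and prmt5 replicate 3 stood above WT replicate 2. Without WT replicate 2 all 8 left the set, with SZF1 at 73.1% of wild type in prmt4a;4b, AT4G27280 at 72.6%, AT5G51190 at 55.3%, CYP707A3 at 75.5%, FBS1 at 66.4%, AT4G27652 at 51.5%, AT1G66090 at 97.0% and PBP1 at 27.5%. Over all 56 prmt4a;4b members, summed levels were 428, 885 and 435 CPM in the 3 wild-type libraries, and 346, 330 and 761 CPM in prmt5. WT replicate 2 was the highest wild-type library for 76.8% of them, against 58.1% of the prmt5 members and 47.4% of all genes. None of the 8 was called in prmt5. There their log2 changes were -0.80 to 1.31. Without WT replicate 2 FBS1 and CYP707A3 were called higher in prmt5, at 1.39 and 1.57, in place of -0.27 and -0.66.

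**Figure D5:**
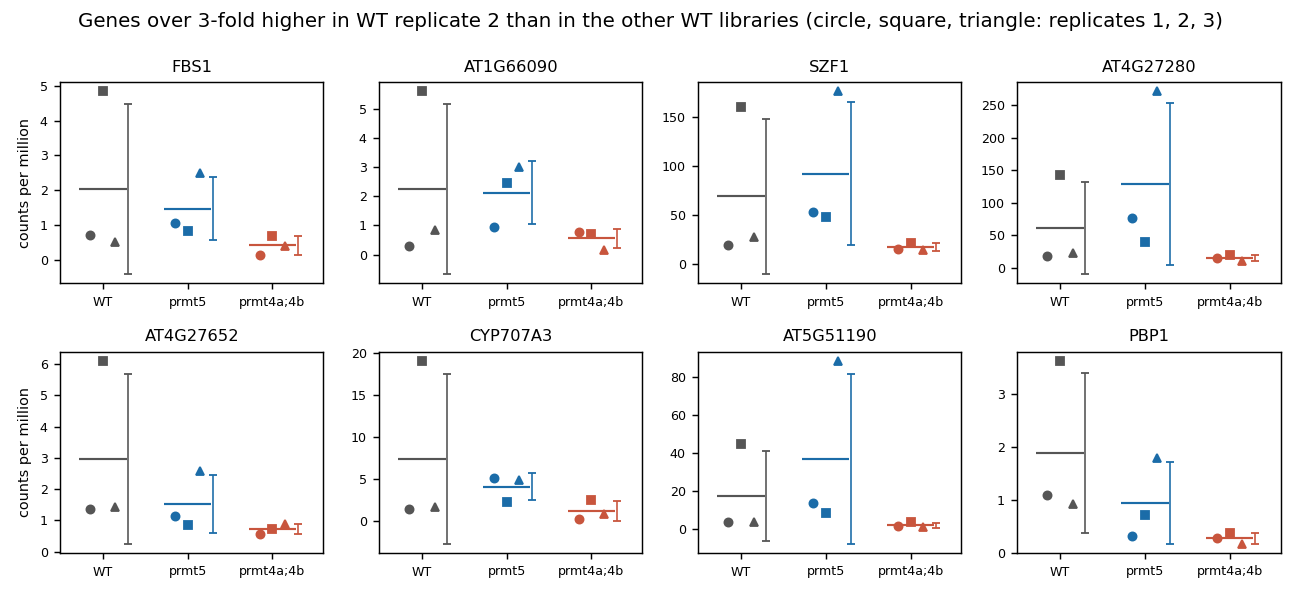
Panels give CPM for the 8 genes over 3 times higher in WT replicate 2 (square) than in either other wild-type library, with circles and triangles for replicates 1 and 3, a bar at the mean and 1 SD beside it. The triangle of prmt5 replicate 3 is the highest prmt5 point in 7 of the 8 panels, and the prmt4a;4b points lie close to WT replicates 1 and 3 in most of them.

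Transcription factors and RNA-binding proteins were 12 members, 5 chosen in prmt5, with 7 in prmt4a;4b. AT5G10120, of the ethylene-insensitive 3 family, had 1.43, 4.33 and 3.28 CPM in the wild type, 0.501, 0.376 and 0.217 in prmt5, with 1.03, 0.682 and 1.11 in prmt4a;4b (-1.38 ± 0.40, edgeR adjusted p = 0.019). BZIP9, a basic leucine zipper gene, was at 20.7% of wild type in prmt5, with 33.6% in prmt4a;4b (-1.29 ± 0.20, adjusted p = 0.00060). The homeobox gene HB52 was at 20.6% and 49.3%. In prmt4a;4b it had 1.42, 1.67 and 4.44 CPM and was not called (-0.72 ± 0.37, adjusted p = 0.15). SEP3, the MADS-box gene of floral organ identity, had 6.19, 6.50 and 4.08 CPM in the wild type, 0.711, 0.920 and 1.99 in prmt4a;4b and 2.63, 3.16 and 4.56 in prmt5, where it was not called (-0.52 ± 0.25, adjusted p = 0.13). SEP3 is itself 1 of 9 fixed markers of floral organs and pollen, and 4 of the 9 had no read in the wild type. The summed level of the 9 was 7.67 to 8.95 CPM in the wild type, 5.17 to 6.85 in prmt5 and 2.84 to 4.95 in prmt4a;4b. SEP3 held most of this sum in each wild-type library, and it was chosen for its low level in prmt4a;4b. The lower sum there is therefore no observation on the other markers.

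Among signaling genes CIPK13, which encodes a kinase of calcineurin B-like calcium sensors, had 1.496, 1.54 and 2.56 CPM in the wild type, 0.376, 0.351 and 0.163 in prmt5, with 1.81, 1.91 and 1.55 in prmt4a;4b, so only prmt5 was apart. Among genes of unknown function AT5G50310, for a kelch-repeat protein, had 27.4, 29.0 and 21.6 CPM in the wild type, 1.13, 1.60 and 1.47 in prmt5, with 13.0, 17.6 and 16.4 in prmt4a;4b. Its share of 5.39% in prmt5 was the lowest among the protein-coding members there with a wild-type mean of at least 50 reads a library. In prmt4a;4b its change of -0.46 ± 0.14 missed the size limit (edgeR adjusted p = 0.026). AT5G52790, for a protein with a CBS domain, had 8.23, 6.31 and 6.39 CPM, then 0.877, 1.08 and 0.924 in prmt5, then 2.35, 4.23 and 5.52 in prmt4a;4b.

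Enzymes other than these were 18 members. In prmt4a;4b alone they included ACA1, a carbonic anhydrase gene, at 54.8, 59.0 and 38.0 CPM in the wild type and 10.9, 11.8 and 12.9 in prmt4a;4b, and JMT, which encodes the enzyme that makes methyl jasmonate, at 15.3% of wild type. In prmt5 alone they included 4CL8, of the AMP-dependent synthetase and ligase family, at 0.139 CPM beside 1.26 in WT, with 1.46 CPM in prmt4a;4b. Cytochrome P450 genes were 4 members. CYP82C4 had 35.9, 28.8 and 17.5 CPM in the wild type, 2.91, 7.17 and 6.90 in prmt5, with 12.9, 8.35 and 7.24 in prmt4a;4b (-1.25 ± 0.25, adjusted p = 0.0030 by edgeR). CYP71B22 and CYP96A9 were near 1 CPM in the wild type, at 18.4% and 23.6% in prmt5. Ribosomal protein genes were 2 members of prmt4a;4b, AT3G45030 at 70.9 ± 13.1 CPM in the wild type, 17.0 ± 3.18 in prmt4a;4b and 23.8 ± 7.93 in prmt5, and AT5G18790 at 23.6% and 30.3%.

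The rest were 2 chaperone genes, 4 transporters, 5 pseudogenes or non-coding RNAs, 5 structural or surface proteins and 13 genes without a known function. Among the transporters SAG29, of the sugar transporter type, was at 23.0% of wild type in prmt4a;4b and 58.3% in prmt5, and CAT5, a cationic amino acid transporter gene, at 20.5% in prmt5, with 28.6% in prmt4a;4b. WDL1, for a microtubule-associated protein of cell elongation, was at 24.4% of wild type in prmt4a;4b and 53.2% in prmt5.

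Of the wider families that members belong to, cytochrome P450 genes were called lower in 42 of 191 and higher in 13 in prmt5, and in 34 and 20 of 191 in prmt4a;4b. Beta-glucosidase genes were lower in 6 and higher in 5 of 34 in prmt5 and in 10 and 2 of 34 in prmt4a;4b, and jacalin lectin genes in 5 and 5 of 29 and in 8 and 1 of 27. Subtilase genes were lower in 7 and higher in 0 of 31 in prmt5 and in 11 and 1 of 31 in prmt4a;4b. Late embryogenesis abundant genes were lower in 8 and higher in 9 of 66 in prmt5 and in 15 and 12 of 67 in prmt4a;4b. For F-box genes the counts were 20 and 24 of 170 and 12 and 43 of 163, for protein kinase genes 103 and 57 of 754 and 61 and 62 of 747, and for UDP-glycosyltransferase genes 20 and 3 of 116 and 14 and 12 of 115. Genes named as transposable elements in the reference annotation and long non-coding RNAs held no member. Their counts were 2 and 0 of 14 and 33 and 17 of 200 in prmt5, and 1 and 1 of 14 and 26 and 34 of 197 in prmt4a;4b. The search for transposable elements went by name alone. It could not find pseudogenes named only as an uncharacterized protein, such as the members AT5G35935 and AT4G28900. These are counts with no test of the family, to be read beside the 14.2% of all tested genes called lower and 11.9% called higher in prmt5, and the 12.0% and 13.8% in prmt4a;4b.

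Members were spread over all 5 nuclear chromosomes, 30, 12, 22, 15 and 29 on chromosomes 1 to 5, or 0.613%, 0.426%, 0.604%, 0.532% and 0.669% of the genes at the wild-type minimum there. None was encoded in an organelle. A run was defined as members chosen in the same mutant that are next or next but one to each other. In prmt5 there were 3 runs with 6 of the 62 members, AT1G29450 with AT1G29460, AT3G05727 with AT3G05730, and BGLU19 with AT3G21380. In prmt4a;4b there were 3 runs with 7 of the 56, MRD1 with HEI10, BGLU19 with AT3G21380, and LTP4 with LTP3 and AT5G59330. Of these 5 distinct runs, SAUR, defensin-like and lipid-transfer runs join genes of 1 kind, MRD1 and HEI10 overlap, and BGLU19 and AT3G21380, 0.531 kilobases apart on opposite strands, encode a beta-glucosidase and a lectin. Within 20 kilobases of each other lay also SAUR27 and SAUR26 (1.322 kilobases), AT1G29460 and AT1G29500 (13.07), AT3G05685 and AT3G05727 (18.64), and VSP2 and BZIP9 (12.98), all chosen in prmt5.

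Near the mutated genes, 2 of the 9 prmt5 members on chromosome 4 lay within 1 megabase of PRMT5, the nearer being CYP82C4 at 0.319 megabases. Of the prmt4a;4b members, 1 of 16 on chromosome 5 lay within 1 megabase of PRMT4A, AT5G51190 at 0.928 megabases, and 3 of 12 on chromosome 3 within 1 megabase of PRMT4B, the nearest being AT3G06160 at 0.321 megabases. None adjoined a mutated gene. Neither the runs nor these distances were counted over all genes at the wild-type minimum, so nothing is read from their number.

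Genes next to members changed about as often as genes in general. Of the 78 tested neighbours of prmt5 members 11 were called lower in prmt5, 14.1% against 14.2% of all tested genes, and 7 were called higher, 8.97% against 11.9%. Of the 83 tested neighbours of prmt4a;4b members 11 were called lower there, 13.3% against 12.0%, and 14 higher, 16.9% against 13.8%. Their median log2 changes were -0.02 in prmt5 and -0.09 in prmt4a;4b.

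Some neighbours belong to the family of the member beside them, and they did not change alike. In prmt5 the subtilase gene AT4G21640 and the SAUR gene AT3G03830 were called lower. So was AT3G48780 (-0.91 ± 0.13, edgeR adjusted p = 0.00077), which shares 1.67% of the 50-base stretches of the member AT3G48790. AT1G31710 (log2 change 0.03), CYP71B23 (0.24), ST4B (AT1G13420, 0.54), AT4G17480 (-0.31), AT1G29440 and SAUR68 were not called in prmt5. In prmt4a;4b pEARLI.1 (AT4G12480), beside AT4G12490, was called higher (0.58 ± 0.17, edgeR adjusted p = 0.021) and AT4G12500 was not called (-1.42 ± 0.69, adjusted p = 0.13). UXS6, annotated as a UDP-XYL synthase, lies beside AT2G28755, annotated as UDP-D-glucuronate carboxy-lyase-like. UXS6 was called lower in prmt4a;4b (-1.21 ± 0.18, adjusted p = 0.00049). AT4G21640, a subtilase gene 579 bases from AT4G21650, had 26, 15 and 11 reads in the wild type, 1, 2 and 1 in prmt5, with 9, 10 and 5 in prmt4a;4b (edgeR adjusted p = 0.00268 in prmt5), and it shares 6.99% of the 50-base stretches of AT4G21650. WOX2, a homeobox gene of the embryo next to the lipid transfer run, had 39, 37 and 22 reads in the wild type, 14, 15 and 10 in prmt5, with 10, 7 and 14 in prmt4a;4b, and was called lower in both (adjusted p = 0.0190 and 0.0341). In prmt5 the others called lower were AT2G34170, AT3G21390, AT4G36105, AT4G39470, AT5G05950, AT5G24250 and IQD33, and in prmt4a;4b AT1G04555, CYP722A1, AT1G48140, AT1G73180, AT3G52730, RLP47, AT4G27654, AT5G24250 and DCP5-L. AT2G34170 overlaps CIPK13 by 100 bases, so those reads cannot be assigned. AT4G27654, beside AT4G27652, had 2, 68 and 9 reads in the wild type and 3, 4 and 2 in prmt4a;4b. Wild type and prmt4a;4b overlapped, and WT replicate 2 held most of its wild-type reads.

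Intron reads gave a further readout of 20 members with at least 60 such reads over the 9 libraries and a gene read in each library. MRD1 was left out by the second condition, having no gene read in prmt4a;4b replicate 2, and its 1 annotated intron held 301 reads over the wild-type libraries, 638 over prmt5 and 23 over prmt4a;4b, beside 1296, 2481 and 10 gene reads. Because MRD1 shares 1446 bases with HEI10 on the opposite strand, these intron reads may come from HEI10, and nothing is read from them about splicing. Intron reads per 100 gene reads were above every wild-type library in every prmt5 library for 8 of 14 prmt5 members, against 38.0% of 9328 genes, and in every prmt4a;4b library for 3 of 9 prmt4a;4b members, against 21.0%. The denominator is the count that chose the genes, so these ratios are a description. AT5G50310 had 2.36, 3.25 and 1.85 intron reads per 100 gene reads in the wild type, 8.33, 17.2 and 20.4 in prmt5, with 1.92, 1.55 and 2.46 in prmt4a;4b. ACA1 had 2.79, 2.40 and 2.84 in the wild type, 19.96, 12.6 and 18.8 in prmt5, with 6.17, 10.1 and 7.85 in prmt4a;4b. UBC10, with the most intron reads, was at 2.42 to 3.00 in the wild type and 3.09 to 3.23 in prmt5, a small difference that counts among the 8. Other members had a lower mean than wild type. AT5G35660 was at 9.07 in WT, 6.45 in prmt5 and 6.29 in prmt4a;4b, SEP3 at 7.32 in WT and 4.46 in prmt4a;4b, and CYSA at 1.02 in WT and 0.863 in prmt5. These mutant means rest on few intron reads, such as 4 for SEP3 in prmt4a;4b and 9 for CYSA in prmt5. In all of these cases mutant and wild-type libraries overlapped. None of the members was below every wild-type library in every library of the mutant that chose it.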

How the data were processed

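RNA-seq libraries were prepared from whole plants, 3 libraries per genotype. The authors aligned reads with TopHat2 2.0.9 (build TAIR10), then counted genes and introns with their own scripts in R, and the deposited values are raw whole-number counts without normalization or filter. The deposited tables of the authors' comparisons hold fold changes and FDR values and were not used. The gene widths deposited beside the counts are exonic bases. The wild-type columns of both mutants' tables hold identical values and were used once.

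Depth was 25029646 to 39904677 gene reads, where 3 reads are 0.0752 to 0.120 CPM. CPM used column sums, which include plastid genes. These held 0.323% to 0.580% of gene reads in the wild-type libraries, 0.604% to 2.10% in prmt5 and 0.869% to 3.94% in prmt4a;4b. Each mutant was compared with wild type by edgeR 4.0.16 in R 4.3.3 (TMM, glmQLFit, glmQLFTest, Benjamini-Hochberg) over genes averaging 10 reads or more in either genotype, 21078 in prmt5 and 20844 in prmt4a;4b, and the procedure was tested on simulated counts. Names, strands and exons came from the RefSeq annotation of TAIR10.1, which matched 32835 of 33602 identifiers and all 108 members. Promoters were read with pysam 0.24.0, and 98.7% of the 120675 nuclear introns in the tables read GT-AG on one strand of that sequence. Shared exon sequence was counted in stretches of 50 bases.

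The members, the family and marker lists and the grouping by function were chosen with earlier results of these data known. Genes were named by a rule: members chosen in both mutants or lying in runs, the 8 lowest shares per mutant with a wild-type mean of at least 50 reads a library, members called higher in the other mutant, the 3 highest levels per mutant, the 2 genes either side of the limit, and neighbours called lower. Others were named after their values were seen. Alternatives were other limits and minimums, TMM-scaled CPM, DESeq2 1.42.0, no TMM, no filter, a replicate block, 1 fit of 9 libraries, leaving out each library in turn or prmt5 replicate 1 with prmt4a;4b replicate 3 (in each mutant the library with most plastid reads) and, added after seeing the data, medians in place of means.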

Additional observations from a re-analysis of the deposited data

How the results depend on the processing

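The size of the set followed the rule. A limit of 20% gave 47 genes (26 in prmt5, 25 in prmt4a;4b, 4 in both) and 30% gave 243 (145, 124 and 26). A wild-type minimum of 0.5 CPM gave 176 (110 in prmt5, 16 in both), and 2 CPM gave 37 in prmt4a;4b. TMM-scaled CPM gave 54 (31, 26 and 3). Medians in place of means, an alternative chosen after seeing the data, gave 17 in both. Leaving out single libraries gave 84 to 166 genes, 33 to 92 in prmt4a;4b and 4 to 16 in both, the extremes coming from WT replicates 2 and 3 for the first pair of counts, and from WT replicates 1 and 2 for the last.

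Without TMM, 4583 genes were called lower in prmt5 and 5308 in prmt4a;4b in place of 2996 and 2494, while 1445 and 1289 were called higher in place of 2505 and 2878. Genes next to members called lower became 17 and 23 in place of 11 and 11, and members chosen in prmt4a;4b called higher in prmt5 became 2 in place of 5. Leaving out single libraries moved this last count to between 3 and 10. In prmt5 the log2 changes of AT1G61340 (FBS1) and AT5G45340 (CYP707A3) turned to 1.39 and 1.57 without WT replicate 2, with ranges over single left-out libraries of -0.93 to 1.39 and -1.14 to 1.57, and the cause was not tested. Counts of members chosen in prmt5 called lower or higher in prmt4a;4b, and of members chosen in prmt4a;4b called lower in prmt5, stayed within 1.5 times of the reported ones in every alternative. Of the log2 changes of single members in the other mutant under all alternatives, 1055 kept direction and call, 71 lost a call and 48 gained one.

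The main fits did not pair libraries by replicate number. Correlations of deviations from the group means between same-numbered wild-type and mutant libraries ran from -0.0295 to 0.00347 in prmt5 and from -0.000689 to 0.103 in prmt4a;4b. The value of 0.103, for both replicates 2, was the largest of any wild-type and prmt4a;4b pair. Such small values cannot tell whether same-numbered libraries were grown or prepared together. With a replicate block 2955 and 2494 genes were called lower, and 28 and 19 members in the mutant that did not choose them. At this depth, members near 1 CPM rest on about 30 reads a library, and shares of a few percent there rest on single reads.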
